A study of Mus musculus with 6 samples.

Results

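Of 42 collagen chain genes measured in cultured AD-MSCs of mice, 16 were higher in CD73+ than in CD73- cells and none was lower. The genes are all those whose symbol on the platform has the form Col, a number, the letter a and a number, and which have a probe set annotated to that gene only. A probe set is a group of short probes on the array that read 1 transcript. These 42 genes have 82 probe sets, out of 18193 genes and 45101 probe sets in all. AD-MSCs, mesenchymal stromal cells that grow out of fat, came here from the groin fat of adult C57BL/6 mice. They were sorted by flow cytometry into cells with and without CD73, a surface enzyme encoded by Nt5e, and cultured further in low sugar DMEM with fetal bovine serum, and RNA was taken at the fifth passage. Each subgroup was measured on 3 Affymetrix expression arrays, unsorted cells were not analysed here, and the labels give no genetic change or drug for either subgroup. Whether each array had a culture or an animal of its own is not given by the labels, and the p-values therefore describe the spread among 6 arrays, some or all of which may be technical. All levels are deposited log2 signals from RMA, and all differences are log2 differences, CD73+ minus CD73-.

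Collagens are the main structural proteins of the extracellular matrix. Each molecule is a trimer of alpha chains whose repeated glycine motif lets them wind around each other, and the chains are encoded by separate genes. Fibrillar collagens build the cable-like fibrils of connective tissue. Collagen IV forms the meshwork of basement membranes, collagen VI forms beaded microfilaments around cells, and FACIT collagens (fibril-associated collagens with interrupted triple helices) decorate the surface of fibrils. In adipose tissue and in cultured stromal cells, fibroblast-like cells are the main source of fibrillar collagen and of collagen VI.

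Promoters are shown for 4 higher chains of collagens VI, I and III, picked after their values were seen and not by the size of the difference, so that the sequence before the starts of chains that rose together can be read. Each is the 250 bases before the RefSeq transcription start (GRCm38.p6, 5′ to 3′ on the strand of the gene). Capitals mark exact matches on either strand to the core letters of 3 promoter elements. The CCAAT box was searched as CCAAT, the GC box as GGGCGG and the TATA box as TATAAA. RefSeq lists 2 starts for Col6a2, and the window of the one farther upstream is given.
Col6a1, chr10:76726045-76726294, strand -: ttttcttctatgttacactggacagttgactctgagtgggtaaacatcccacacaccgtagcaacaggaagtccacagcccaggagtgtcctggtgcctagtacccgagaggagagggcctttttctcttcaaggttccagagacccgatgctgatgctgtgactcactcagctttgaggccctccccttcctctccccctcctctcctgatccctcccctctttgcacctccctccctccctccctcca
Col6a2, chr10:76623631-76623880, strand -: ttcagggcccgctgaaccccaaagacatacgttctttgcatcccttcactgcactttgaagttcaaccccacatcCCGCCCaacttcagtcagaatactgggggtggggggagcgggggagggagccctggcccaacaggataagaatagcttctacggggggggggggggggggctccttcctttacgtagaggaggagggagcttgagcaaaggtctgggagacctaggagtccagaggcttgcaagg
Col1a2, chr6:4505368-4505617, strand +: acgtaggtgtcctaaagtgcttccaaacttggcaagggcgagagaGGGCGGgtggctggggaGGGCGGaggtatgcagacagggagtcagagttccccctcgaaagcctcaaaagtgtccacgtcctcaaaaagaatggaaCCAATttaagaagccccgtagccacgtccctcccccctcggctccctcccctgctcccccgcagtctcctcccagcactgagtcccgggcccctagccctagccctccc
Col3a1, chr1:45311288-45311537, strand +: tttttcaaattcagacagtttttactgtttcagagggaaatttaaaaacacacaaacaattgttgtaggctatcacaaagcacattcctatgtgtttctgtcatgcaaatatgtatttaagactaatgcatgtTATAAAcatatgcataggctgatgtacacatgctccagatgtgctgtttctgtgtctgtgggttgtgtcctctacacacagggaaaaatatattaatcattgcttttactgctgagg
In these windows Col1a2 held a CCAAT match 109 to 105 bases before the start and GC box matches 205 to 200 and 188 to 183 bases before it. Col6a2 held a GC box match on the opposite strand 175 to 170 bases before the start, Col3a1 held a TATA match 117 to 112 bases before it, and Col6a1 held none of the letters searched. A promoter was given for 33 of the 42 genes. Among them 20 had a GC box match (60.6%, against 32.7% of 32851 mouse promoter windows of the same length), 13 a CCAAT match (39.4% against 33.8%) and 5 a TATA match (15.2% against 12.4%). A collagen gene with several starts was counted where any of its windows held a match, whereas the mouse windows were counted singly. Such a gene had more chances of a match, so that the shares are not strictly alike. The motifs do not overlap each other in the windows printed, and a match is a description of letters, not of a site in use.

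The sort marker and the markers of other cell types were read first. Nt5e was higher in CD73+ cells, at 7.73 ± 0.12 (SD, n = 3) against 6.84 ± 0.45 (SD, n = 3) on its brightest probe set (limma adjusted p = 0.0218). A gene is called dim here where its mean in both subgroups lay under 5.12, the 95th percentile of 80 probe sets of olfactory and vomeronasal receptors, genes that stromal cells are not thought to express. On that probe set Nt5e read 7.29, 6.39 and 6.84 in CD73- and 7.84, 7.60 and 7.74 in CD73+ arrays, all above this limit. The counts of markers that follow stand against 10.1% of all 18193 genes that were higher in CD73+ cells at an adjusted p under 0.05 from limma. Of 8 measured stromal markers 1, Lum, was dim and 4 were higher in CD73+ cells, Dcn by 1.24, Thy1 by 0.65, Pdgfra by 0.64 and Pdgfrb by 0.36. Their mean log2 level ran from 8.77 to 8.82 over the CD73+ and from 8.38 to 8.40 over the CD73- arrays. None of 6 endothelial, 5 adipocyte, 6 epithelial, 5 chondrocyte, 3 osteoblast or 3 Schwann cell markers passed, and the endothelial and adipocyte genes other than Kdr were dim. Csf1r, a macrophage receptor, was the 1 of 6 leukocyte markers that passed (0.49). Ptprc, the gene of CD45, and Adgre1 were dim, whereas Cd68, Lyz2 and Cd3e were not dim and did not pass. Cnn1, a smooth muscle calponin, was the 1 of 7 mural markers that passed (0.48). At that threshold these shares of leukocyte and mural markers lie near that of all genes. The CD73+ values lay above all CD73- values for 3 of the 6 leukocyte and 3 of the 7 mural markers, against 18.1% of all genes. They lay below them for 0 of either, against 22.7% of all genes. The part of any of these cells in the collagen values was not tested, and in such bulk RNA fewer cells of a type and less RNA per cell cannot be told apart.

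Every collagen chain that passed was higher in CD73+ AD-MSCs. At an adjusted p under 0.05 from limma, 16 of 42 chains (38.1%) were higher and 0 were lower, whereas 10.1% of all 18193 genes were higher and 12.6% were lower. The differences of the 16 ran from 0.23 to 1.45 and 11 of them reached 0.5, which 3.22% of all genes did in that direction. The 3 CD73+ values lay above all 3 CD73- values for each of the 16, and for 17 of the 42 chains, against 18.1% of all genes. They lay below them for 2 chains, against 22.7% of all genes. The median over the 42 chains was 0.062, and over all genes -0.018. By class, 7 of 11 fibrillar chains, 2 of 6 chains of collagen IV, 3 of 5 chains of collagen VI, 2 of 9 FACIT chains and 2 of the 11 remaining chains were higher.

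**Figure D1:**
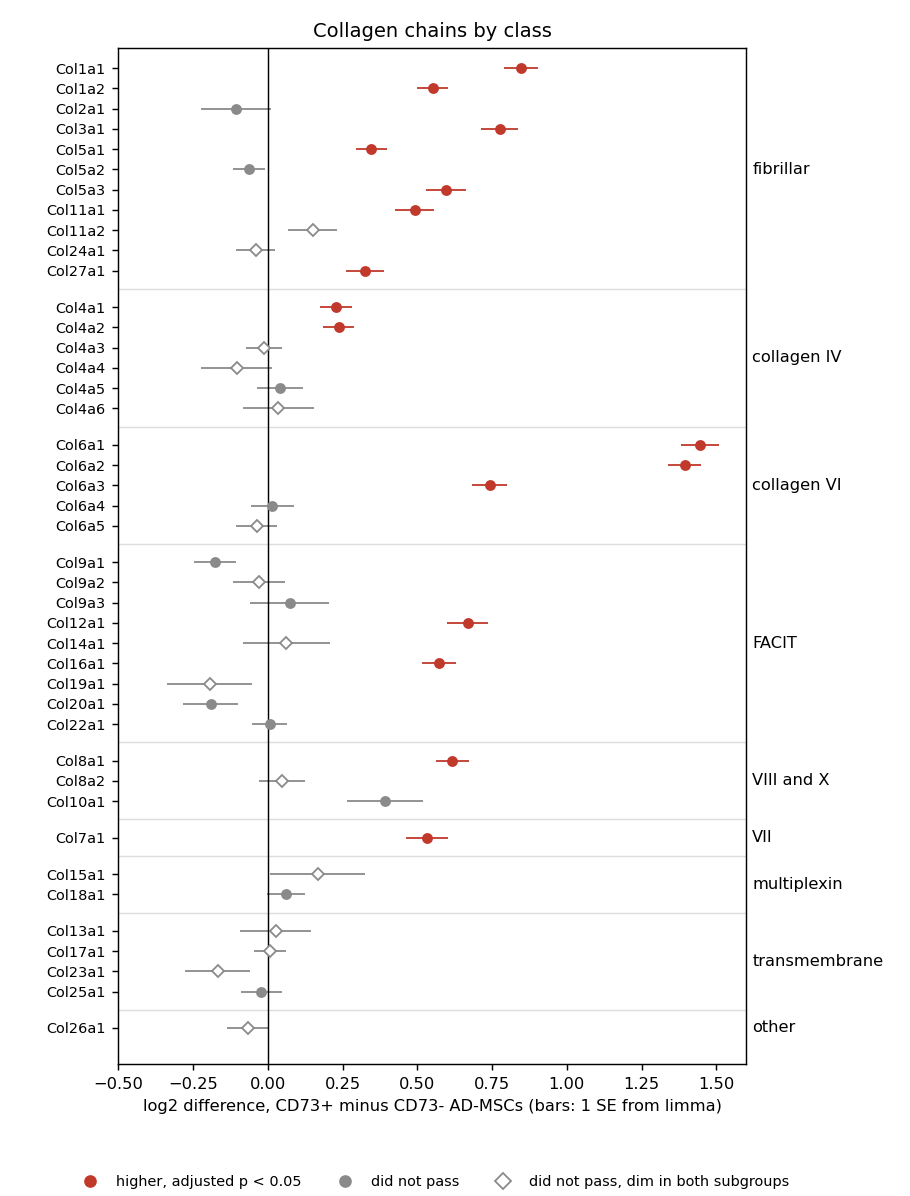
Difference in log2 signal (CD73+ minus CD73-, horizontal axis) for the 42 collagen chains, each drawn as 1 point for its brightest probe set with whiskers of 1 limma standard error from 3 arrays in each subgroup. Chains in red were higher at an adjusted p under 0.05, grey points did not pass and open diamonds are dim in both subgroups; Col6a1 and Col6a2 lie farthest to the right, at 1.45 and 1.39, and no point to the left of 0 passed.

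On the brightest probe sets, the widest differences were those of a pair of collagen VI chains. Col6a1 read 8.64, 8.73 and 8.56 in CD73- and 10.08, 10.09 and 10.10 in CD73+ replicates 1, 2 and 3. Col6a2 read 8.74, 8.72 and 8.74 in CD73- and 10.12, 10.09 and 10.18 in CD73+ cells. For both chains the gap between the subgroups was many times the spread within them. The difference was 1.45 for Col6a1 (standard error 0.063, 2.72-fold, adjusted p = 8.59e-05 from limma) and 1.39 for Col6a2 (standard error 0.055, 2.63-fold, adjusted p = 5.81e-05 from limma). These chains pair with each other in every collagen VI trimer, and their genes are neighbours in the RefSeq order. A dimmer probe set of Col6a2, of a kind whose probes may also bind other transcripts, rose by 1.19.
On its only probe set the long chain that completes the usual trimer, Col6a3, rose less. It read 9.94, 10.05 and 10.04 in CD73- and 10.76, 10.73 and 10.77 in CD73+ cells, so that it gained 0.74 (standard error 0.058, adjusted p = 0.000335 from limma). The change of Col6a1 exceeded that of Col6a3 by 0.70, with no overlap between the subgroups in the difference of the chains taken within each array (exact permutation test, two-sided, p = 0.1, the smallest that 3 against 3 arrays allow, adjusted p = 0.15 over 6 pairs of chains). Col6a1 and Col6a3 have 1 probe set each, so that unequal chains and unequal probe sets cannot be told apart there. Col6a1 and Col6a2 differed in their change by 0.052, with overlap (exact permutation test, two-sided, p = 0.5). The alternative long chains Col6a4 and Col6a5 had differences of 0.016 (95% interval -0.15 to 0.18) and -0.037 (-0.20 to 0.13), and Col6a5 was dim.

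The fibrillar collagens of ordinary connective tissue were higher as well. Col1a1, which supplies most of each collagen I molecule, read 10.28, 10.30 and 10.33 in CD73- and 11.13, 11.10 and 11.21 in CD73+ cells. Its partner Col1a2 read 12.82, 12.81 and 12.86 against 13.39, 13.39 and 13.38. Col3a1, the single chain of collagen III, which is mixed into collagen I fibrils in stretchable tissue, read 11.22, 11.26 and 11.17 against 11.94, 11.97 and 12.07. In all of them the lowest CD73+ array lay above the highest CD73- array. The differences were 0.85 for Col1a1 (standard error 0.058, adjusted p = 0.000214 from limma), 0.55 for Col1a2 (standard error 0.052, adjusted p = 0.000613 from limma) and 0.78 for Col3a1 (standard error 0.061, adjusted p = 0.000341 from limma).
Chains of the minor fibrillar collagens V and XI, which start fibrils and limit their width, followed in part. Col5a1 rose by 0.35, from 10.26 ± 0.022 to 10.61 ± 0.029 (SD, n = 3 each). Col5a3 rose by 0.60, from 7.52 ± 0.085 to 8.11 ± 0.053 (SD, n = 3 each). Col11a1 rose by 0.49, from 5.69 ± 0.081 to 6.18 ± 0.056 (SD, n = 3 each), closer to the dim range than the others. Col27a1, a fibrillar chain best known from cartilage, rose by 0.32, and its call ended without CD73+ replicate 1 (limma adjusted p = 0.0504).
Among fibrillar chains that did not pass was Col5a2, the usual partner of Col5a1. It read 13.27, 13.21 and 13.26 in CD73- and 13.21, 13.20 and 13.14 in CD73+ cells where its signal was brightest, which is -0.063 (95% interval -0.19 to 0.064). The highest values of the arrays were between 14.01 and 14.09. Col1a2 read up to 13.39 in CD73+ cells on its brightest probe set, which rose by 0.55, against 1.20 and 1.17 on its dimmer ones. Whether the level of the signal limited the difference of Col5a2 was not tested. Its other probe set rose by 0.40, from 9.91 to 10.31. The change of Col5a1 exceeded that of Col5a2 by 0.41 on the brightest probe sets (exact permutation test, two-sided, p = 0.1, adjusted p = 0.15 over 6 pairs of chains). Col2a1, the chain of cartilage collagen, had -0.11 (-0.38 to 0.16), and Col11a2 and Col24a1 were dim, with differences of 0.15 and -0.041.

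**Figure D2:**
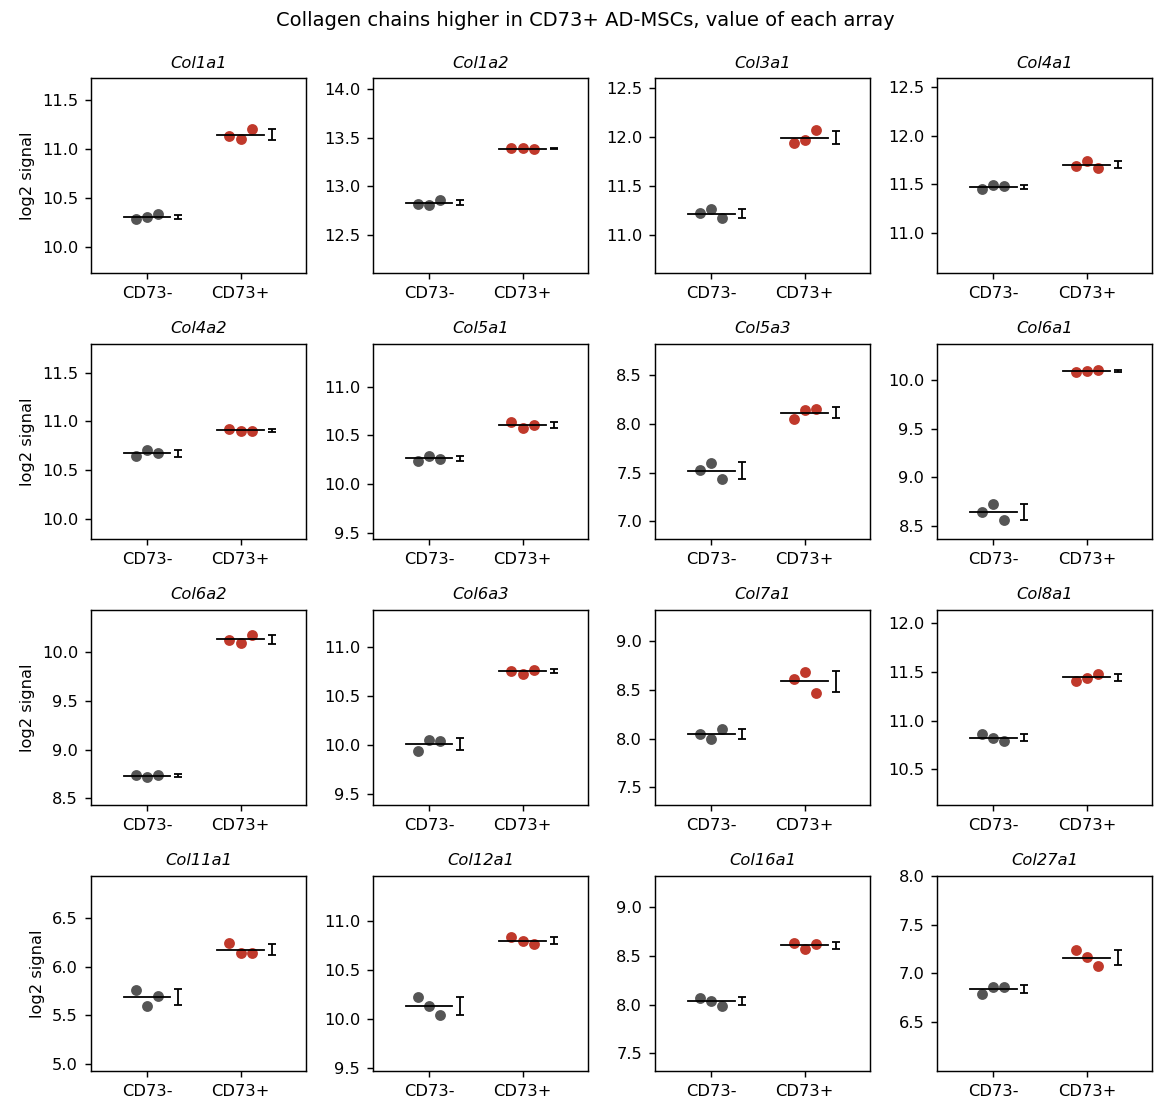
Log2 signal of each of the 16 collagen chains that were higher in CD73+ AD-MSCs, with 1 point per array (CD73- grey, CD73+ red), a line at the mean and a bar of 1 SD beside it. Every vertical axis spans the same log2 range, so that gaps can be compared between panels but levels cannot; the 3 CD73+ points lie above the 3 CD73- points in each panel, farthest for Col6a1 and Col6a2 and least for Col4a1 and Col4a2.

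Chains of the basement membrane collagen IV moved little. Col4a1 and Col4a2, which together make the common form of collagen IV, are neighbours read in opposite directions from starts 21 bases apart. Col4a1 read 11.45, 11.49 and 11.48 in CD73- and 11.69, 11.74 and 11.67 in CD73+ cells. Col4a2 read 10.64, 10.71 and 10.67 against 10.92, 10.90 and 10.90. The subgroups did not overlap for either chain, and the differences were of similar size, 0.23 (standard error 0.053, adjusted p = 0.0225 from limma) and 0.24 (standard error 0.053, adjusted p = 0.0191 from limma). Both calls ended with median centring of the arrays (adjusted p = 0.0773 and 0.0677 from limma), and when replicate 1 of the CD73- or replicate 1 or 2 of the CD73+ cells was left out. Without these arrays the limma adjusted p was 0.0681, 0.0795 and 0.0912 for Col4a1 and 0.0616, 0.0789 and 0.0659 for Col4a2, and Col4a1 also missed the threshold without CD73- replicate 2 (0.0668). The second probe set of Col4a1, also bright, had -0.11 (adjusted p = 0.21 from limma), so that the direction of Col4a1 was not shared by its probe sets.
The other chains of collagen IV, which form the specialised networks of kidney, eye and smooth muscle, did not pass. Col4a5 was bright, at 10.88 in CD73- and 10.92 in CD73+ cells, with a difference of 0.040 (95% interval -0.14 to 0.22), and its second probe set had -0.16 (adjusted p = 0.0965 from limma). Col4a3, Col4a4 and Col4a6 were dim on all of their probe sets, with differences between -0.10 and 0.035 on the brightest. Col15a1 and Col18a1, collagens that lie in or beside basement membranes, had 0.17 and 0.061 and did not pass either, and Col15a1 was dim. A second probe set of Col18a1, the source of endostatin, rose by 0.38 (adjusted p = 0.0302 from limma).

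Among FACIT collagens, Col12a1 and Col16a1 were higher. Col12a1, which binds collagen I fibrils, read 10.23, 10.13 and 10.04 in CD73- and 10.84, 10.80 and 10.77 in CD73+ cells. Col16a1 read 8.07, 8.04 and 7.99 against 8.63, 8.57 and 8.62. The differences were 0.67 (standard error 0.067, adjusted p = 0.000788 from limma) and 0.57 (standard error 0.056, adjusted p = 0.000688 from limma), and neither chain overlapped between the subgroups. The chains of cartilage collagen IX, Col9a1, Col9a2 and Col9a3, had -0.18, -0.029 and 0.073 and did not pass. Neither did Col14a1 (0.062), Col19a1 (-0.19), Col20a1 (-0.19) or Col22a1 (0.0059), of which Col14a1 and Col19a1 were dim, as was Col9a2.

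Of the chains outside these classes, Col7a1 and Col8a1 were higher. Col7a1, the chain of the anchoring fibrils that fasten epidermis to dermis, read 8.05, 8.0 and 8.10 in CD73- and 8.61, 8.68 and 8.47 in CD73+ cells, and gained 0.53 (standard error 0.071, adjusted p = 0.00238 from limma). Col8a1, a short chain that forms hexagonal networks in vessel walls, read 10.86, 10.82 and 10.79 against 11.41, 11.44 and 11.48, and gained 0.62 (standard error 0.055, adjusted p = 0.000487 from limma). Its partner Col8a2 was dim, with 0.046. Col10a1, a related short chain typical of hypertrophic cartilage, read 4.71, 4.96 and 5.21 in CD73- and 5.41, 5.43 and 5.22 in CD73+ cells, close to the dim limit. Its difference of 0.39 did not pass (adjusted p = 0.073 from limma), but it did once CD73- replicate 3 was left out (0.52, limma adjusted p = 0.0205). The membrane-bound chains Col13a1, Col17a1, Col23a1 and Col25a1, and Col26a1, had differences between -0.17 and 0.026, and of these Col25a1 alone was not dim.

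In all, 26 chains did not pass, 13 with a difference above 0 and 13 below it, and their 95% intervals reached from -0.52 to 0.69 at the widest. Of the 42 chains 15 were dim, and none of these passed. Among the 27 chains whose mean over the 6 arrays lay above the dim limit 16 were higher, or 59.3%, against 15% of all genes above that limit. Dim chains can show little on these arrays, and a missed threshold there does not show that the subgroups were alike.

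The probe sets of a chain did not always give the same size of difference. Of the 82 probe sets 29 were higher and none was lower, against 9.79% and 9.11% of all 45037 probe sets that are not controls. Of 27 chains with several probe sets, 7 were higher on all of them, 6 on some and 14 on none. The chains higher on some only were Col4a1, Col5a2, Col5a3, Col12a1, Col18a1 and Col27a1, and for Col5a3 and Col12a1 the probe sets that missed the threshold were dim. Among 13 chains with at least 2 probe sets that were not dim, the brightest gave the smallest difference for 7. Col1a2 rose by 0.55 on its brightest probe set and by 1.20 and 1.17 on the others, Col3a1 by 0.78 and 1.48, and Col5a1 by 0.35, 0.65 and 0.64. The remaining chains went otherwise, among them Col6a2 with 1.39 on its brightest and 1.19 on its other probe set. Col12a1 had 0.67 on its brightest and 0.32 on its second. With the second brightest probe sets in place of the brightest, the change of Col1a1 minus that of Col1a2 turned from 0.29 to -0.30 (exact permutation test, two-sided, p = 0.1 for both), so that which chain of collagen I rose more depended on the probe set.

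**Figure D3:**
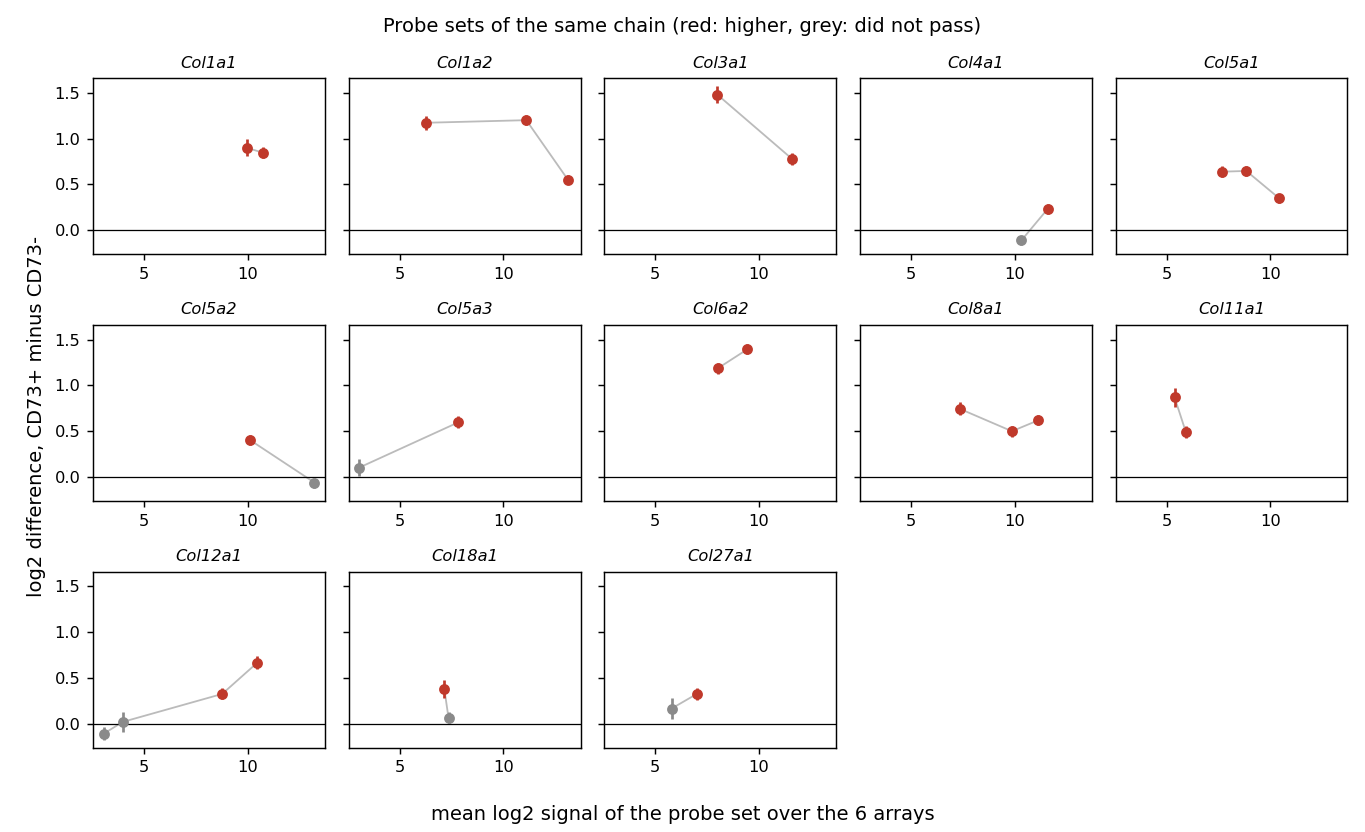
Difference in log2 signal (CD73+ minus CD73-, vertical axis, whiskers of 1 standard error) of every probe set against its mean log2 signal over the 6 arrays (horizontal axis), for the 13 chains with several probe sets of which at least 1 was higher. Red points passed and grey points did not; the brightest probe sets of Col1a2, Col3a1, Col5a1 and Col5a2 lie below the dimmer ones of the same chain, while those of Col6a2 and Col12a1 lie above.

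Genes that fold, modify, trim and cross-link collagen were mostly higher too. Of 27 measured processing genes 19 were higher (70.4%, against 10.1% of all genes) and 1 was lower, with a median of 0.44. Pcolce2 and Pcolce, which speed the removal of the end of procollagen, rose by 1.36 and 0.70. Bmp1, the protease that makes this cut, rose by 0.61, and Plod1, a lysyl hydroxylase, by 0.67, although its second probe set had 0.17 (limma adjusted p = 0.506). Tll1, a relative of Bmp1, fell by 0.29 and was dim, at 4.59 in CD73- and 4.30 in CD73+ cells, and its call ended under all leave-1-out fits but that without CD73- replicate 3. Picked after their values were seen, the prolyl hydroxylase subunits P4ha1, P4ha2, P4ha3 and P4hb rose by between 0.51 and 0.60 and the cross-linking enzyme Lox by 0.49. Serpinh1, a chaperone that binds procollagen in the endoplasmic reticulum, rose by 0.25, a call that ended under every leave-1-out fit but that without CD73- replicate 1.
Of 12 measured collagen receptor genes 2 were higher (16.7%, against 10.1% of all genes) and 1 was lower (against 12.6% of all genes), which is near the background, with a median of 0.029. Mrc2, which takes collagen into the cell for breakdown, rose by 0.70, and Antxr1, a receptor for collagens I and VI, by 0.29. Their second probe sets had 0.16 and 0.21 and did not pass (limma adjusted p = 0.366 and 0.111). Antxr2, a receptor for collagen VI and laminin, fell by 0.47, from 9.13 to 8.65 (standard error 0.064, adjusted p = 0.0025 from limma). The integrin subunit Itgb1 had 0.18 (adjusted p = 0.061 from limma), and the discoidin receptors Ddr1 and Ddr2 had 0.053 and -0.026 and did not pass. On the second brightest probe sets Itgb1 was higher by 0.29 and Ddr2 lower at -0.32 (limma adjusted p = 0.0121 and 0.0119).

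**Figure D4:**
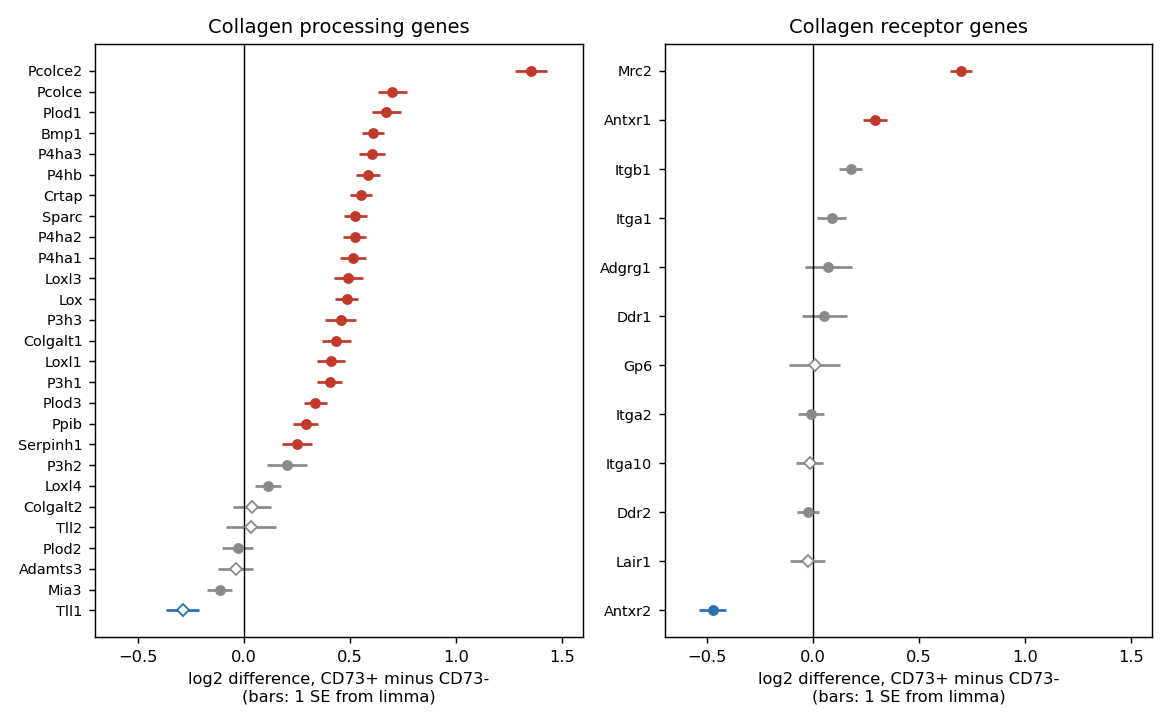
Difference in log2 signal (CD73+ minus CD73-) of 27 collagen processing genes (left) and 12 collagen receptor genes (right), drawn as points with whiskers of 1 standard error (limma). Red marks genes that were higher and blue those that were lower at the threshold, grey points did not pass it and open diamonds are dim; Pcolce2 lies farthest to the right at 1.36 and Antxr2 farthest to the left at -0.47.

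The directions given above are those on the deposited scale. The poly-A controls, bacterial transcripts normally added to RNA before labelling, were read from the 12 probe sets named for DapX, LysX, PheX or ThrX, and any others were not used. These 12 were lower in CD73+ arrays by 0.93 (7.76 ± 0.068 against 8.69 ± 0.042, SD, n = 3 each). The 18 hybridisation control probe sets were lower by 0.23. Whether the poly-A controls were added per amount of RNA or per cell is not given in the sources used here, so that what the scaled values are relative to is not known. When every array was scaled to the poly-A controls, all 42 chains were higher, as were 18048 of all 18193 genes. The median over the chains was then 0.99, and that over all genes moved from -0.018 to 0.91. On the deposited scale 30 of the 42 chains lay above the median of all genes. Counts of higher against lower genes therefore depend on the scale.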

How the data were processed

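RNA of 3 CD73+ and 3 CD73- AD-MSC samples was measured on Affymetrix mouse expression arrays, grouped by the sample titles. The deposited table holds log2 signals for 45101 probe sets. The submitters' processing notes name RMA (background correction, normalization between arrays, summary per probe set), whose version is not given in the sources used here. RMA removes shifts shared by most transcripts and tends to compress ratios. The platform's annotation gave 1 symbol for 34945 probe sets, several for 932 and none here for 9160, and 64 controls were set aside. The remaining 45037 were compared in limma 3.58.1 (R 4.3.3; lmFit and eBayes without a filter or block), p-values were adjusted by Benjamini-Hochberg over the whole table, and 0.05 was the threshold. A gene is represented by its brightest probe set on average. Precision is limited by the number of arrays (median SD of a probe set among arrays of 1 subgroup, 0.0877).

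The classes follow general knowledge. Every chain that passed is named with its values, and of each other list up to 4 members that rose and up to 4 that fell the most among those that passed. The members and lists were chosen with earlier results of these data known. The fit was tested on simulated data. Of chains listed in the classes, Col6a6, Col21a1 and Col28a1 had no probe set named for them alone and were not analysed here. Promoters come from RefSeq (GRCm38.p6). Alternatives were a replicate block, other normalizations, scaling to poly-A controls, a level filter and other variance priors. Further ones were an ordinary t-test, array weights, 1 array left out at a time, other probe sets and a fold limit. Python 3.11.15 with matplotlib 3.10.9 drew the plots.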

Additional observations from a re-analysis of the deposited data

How the results depend on the processing

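The 16 higher chains became 14 with the replicate block, 15 with median centring, 17 with an eBayes trend or array weights, 11 with a log2 difference of at least 0.5 as well and between 13 and 17 when 1 array was left out. Col6a1, Col6a2, Col6a3, Col1a1, Col1a2, Col3a1, Col7a1, Col8a1, Col12a1 and Col16a1 were called under every alternative. Of these, Col6a1, Col6a3, Col7a1 and Col16a1 have 1 probe set each. The alternatives with other probe sets read that same probe set again and were no check on them. The labels do not say whether same-numbered arrays belong together. Their deviations from the subgroup means correlated at -0.14, 0.028 and -0.14, against -0.063 to 0.17 for arrays of different numbers. Deviations from a mean of 3 arrays cannot settle whether the arrays were paired. The replicate block took the higher genes from 1840 to 1259.

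Collagen IV had 0 higher chains with the replicate block, median centring or the fold limit, 1 with the mean or the second brightest of the probe sets, and 0 to 2 with 1 array left out, being 0 without replicate 1 of CD73- cells or replicate 1 or 2 of CD73+ cells. The median over the chains was 0.34 among probe sets above the median level, where 26 chains remained in the fit, and 0.031 to 0.14 with 1 array left out, the upper values without CD73- replicate 3 or CD73+ replicate 3. Lower chains numbered 0 to 1 with 1 array left out, the 1 being Col23a1 (-0.29, adjusted p = 0.0471 from limma) without CD73- replicate 2. Fibrillar chains came to 4 with the fold limit.

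Processing genes: 0 were lower with the replicate block, quantile normalization, cyclic loess, the level filter, an eBayes trend, an ordinary t-test or the fold limit. With the second brightest probe sets 2 were lower, and 0 to 1 with 1 array left out. With the fold limit 10 were higher. Receptor genes: 1 was higher with the second brightest probe sets or the fold limit, and 2 were lower with the mean or second brightest of the probe sets, 0 with the fold limit. With cyclic loess 3 were higher. Itgb1 passed as higher there and with the level filter, an eBayes trend or an ordinary t-test. It also passed with the mean or second brightest of its probe sets. After scaling to the poly-A controls 42 chains were higher (11 fibrillar, 6 collagen IV, 5 collagen VI, 9 FACIT), with a median of 0.99. Then 0 processing and 0 receptor genes were lower and 12 receptor genes were higher. The same scaling made 18048 of all 18193 genes higher and 19 lower.

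The change of Col4a1 minus that of Col4a2, -0.0079, turned to 0.00338 with quantile normalization and ran from -0.029 to 0.0041 with 1 array left out (exact permutation p between 0.2 and 1). It was -0.18 with the mean and -0.35 with the second brightest of the probe sets (exact permutation p = 0.1 for both). The change of Col1a1 minus that of Col1a2 turned to -0.10 with the mean of the probe sets and -0.30 with the second brightest. Col5a2 turned to 0.17 with the mean and 0.40 with the second brightest, Plod2 to 0.24 and Col4a1 to -0.11 with the second brightest. Scaled to the poly-A controls, values under 0 turned positive: Col19a1 0.73, Col20a1 0.74, Col23a1 0.76, Col24a1 0.89, Col25a1 0.91, Col26a1 0.86, Col2a1 0.82, Col4a3 0.91, Col4a4 0.82, Col5a2 0.86, Col6a5 0.89, Col9a1 0.75, Col9a2 0.90, Plod2 0.90, Mia3 0.81, Tll1 0.64, Adamts3 0.89, Itga2 0.92, Itga10 0.91, Ddr2 0.90, Lair1 0.90 and Antxr2 0.45. The cause of these changes was not tested.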
